A study of Rattus norvegicus with 27 samples.

Results

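Maoa, Maob, Slc22a3, Slc29a4, Ddc and Hnmt are 6 genes that make, take up or break down monoamines, the transmitters dopamine, noradrenaline, serotonin and histamine. They were chosen by their rat gene symbols, and all 6 had a row of their own among the 36865 rows of a table of reads counted per gene. The tissue was the medial prefrontal cortex (mPFC), taken from 27 adult male Wistar rats, with 1 library per rat, and it was sequenced to look for transcripts that go with trait anxiety. The rats had been through repeated anxiety tests in a light-dark box, an open field and a plus-maze and were killed in a resting state after a rest of some weeks. All 27 form 1 group with no untreated or control rats, and how anxious each rat was did not enter the values below. The submitters' labels name the treatment as learned helplessness, which the study's methods do not describe. Labels and methods also name different library kits and different brain sections, so neither kit nor section is taken as known.

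Monoamine oxidases A and B are flavoenzymes of the outer mitochondrial membrane that oxidise monoamines inside the cell, and in brain the B form is known from astrocytes and serotonergic neurons, the A form mainly from catecholaminergic neurons. Transmitter that escapes the high-affinity transporters of the nerve terminal can be cleared by polyspecific transporters of low affinity and high capacity, among them the organic cation transporter OCT3, encoded by Slc22a3, and the plasma membrane monoamine transporter PMAT, encoded by Slc29a4. Ddc encodes aromatic L-amino acid decarboxylase, which makes dopamine from L-DOPA and serotonin from its hydroxylated precursor and is also known from brain capillaries, and Hnmt encodes histamine N-methyltransferase, which inactivates histamine in brain. The cell bodies of the monoamine neurons lie in the brainstem and hypothalamus, so that a cortical sample holds their fibres and the cells these fibres reach.

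The DNA before an annotated start can be compared between the 6 genes. The 250 bases upstream are shown for both oxidases, for Slc29a4 and for the first 2 of the 3 starts listed for Ddc, because these windows hold the matches. The sequences are those of RefSeq on the rat assembly GRCr8, read in the direction of the gene, and capitals mark every match on either strand to one of 3 motifs of core promoters. The GC box was searched as the letters GGGCGG. The TATA box was searched as the letters TATAAA. The third motif searched was the CCAAT box, by the letters of its name. The 3 motifs do not overlap each other in these windows.
Maoa, chrX:8681373-8681622, minus strand: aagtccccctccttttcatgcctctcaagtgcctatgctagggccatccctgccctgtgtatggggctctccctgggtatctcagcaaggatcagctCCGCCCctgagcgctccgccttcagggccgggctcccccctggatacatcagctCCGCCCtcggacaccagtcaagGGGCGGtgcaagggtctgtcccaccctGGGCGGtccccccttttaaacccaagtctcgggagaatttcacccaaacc
Maob, chrX:8490155-8490404, plus strand: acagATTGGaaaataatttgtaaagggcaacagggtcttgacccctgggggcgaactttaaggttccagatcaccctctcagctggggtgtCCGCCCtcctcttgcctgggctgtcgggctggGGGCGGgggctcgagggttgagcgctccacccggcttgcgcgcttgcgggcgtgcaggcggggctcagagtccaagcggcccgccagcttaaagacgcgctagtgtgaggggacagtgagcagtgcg
Slc29a4, chr12:16988339-16988588, minus strand: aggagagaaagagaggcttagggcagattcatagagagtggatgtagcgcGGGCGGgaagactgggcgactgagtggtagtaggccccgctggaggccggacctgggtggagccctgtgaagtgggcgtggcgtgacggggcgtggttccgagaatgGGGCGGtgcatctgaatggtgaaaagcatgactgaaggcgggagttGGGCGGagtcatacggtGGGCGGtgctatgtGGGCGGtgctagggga
Ddc first start, chr14:90682784-90683033, minus strand: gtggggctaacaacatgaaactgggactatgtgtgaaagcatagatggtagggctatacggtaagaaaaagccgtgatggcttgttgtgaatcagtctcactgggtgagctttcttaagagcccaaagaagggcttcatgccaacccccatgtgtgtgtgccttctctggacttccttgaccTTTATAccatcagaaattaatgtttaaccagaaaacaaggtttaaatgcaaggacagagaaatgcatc
Ddc second start, chr14:90675627-90675876, minus strand: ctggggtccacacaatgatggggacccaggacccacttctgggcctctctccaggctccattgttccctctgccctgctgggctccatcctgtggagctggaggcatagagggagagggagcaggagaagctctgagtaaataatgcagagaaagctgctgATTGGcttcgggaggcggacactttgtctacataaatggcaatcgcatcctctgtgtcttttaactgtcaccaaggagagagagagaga

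The Maoa window held 4 GC boxes, the Maob window 2 GC boxes and 1 CCAAT box, and the Slc29a4 window 5 GC boxes, whereas the windows of Slc22a3, Ddc and Hnmt held none. Of 33469 upstream windows of the same length in the table, 30.5% held at least 1 GC box and 3.67% at least 4. The share of G and C was 62.4% before Maoa, 63.6% before Maob and 62.4% before Slc29a4, against a median of 51.2% over all windows. At Ddc the first start had 1 TATA box, found in 12.9% of windows, the second had 1 CCAAT box, found in 34%, and the third had neither. The Slc29a4 window lies before a start inside the annotated gene, whose span begins farther upstream, and all 3 Ddc starts likewise lie within the span of the gene, the first of them close to its beginning. A Ddc or Slc29a4 count sums transcripts from every start, so it cannot tell them apart. Maoa and Maob face each other on chromosome X on opposite strands, with their starts at the outer ends. They are paralogs, so a read placed on one may belong to the other, and how such reads were assigned is not given in the sources used here. A letter match is a description of the window, not a binding site.

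Libraries held between 4907255 and 12771309 counted reads (median 8168801). Depth followed the library number in the sample titles. The 16 libraries numbered up to 31 held 4907255 to 8568317 reads and the 11 numbered from 32 held 9404220 to 12771309, without overlap, and what else changed at that number cannot be told apart from it. Neuronal, astrocytic, oligodendrocytic, microglial and endothelial markers were all counted in the tissue, and every listed marker of these types averaged at least 10 reads. Of 6 choroid plexus and ependymal markers 2 did, and Folr1 had no read in any library. Library 3 stood apart, with the lowest neuron marker score (-3.29 SD) and the highest oligodendrocyte score (2.33 SD).

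All 6 genes were counted in all 27 libraries, and all 6 differed between rats by more than read counting gives (chi-square test for more spread than Poisson counts have, Benjamini-Hochberg adjusted over the 11730 genes that averaged at least 10 reads). The same held for 89.8% of those genes, so passing the test does not set the 6 apart. The largest adjusted p among them was 9.86e-05, for Hnmt. Levels are given below as normalised counts, meaning reads divided by the size factor of the library, and are not compared between genes because a longer transcript collects more reads. The variation cannot be divided into differences between rats and differences made in preparing the libraries.

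Maoa had 333 to 963 raw reads per library. Its normalised count ran from 485 in library 52 through a median of 588 to 712 in library 12, with a mean of 592 ± 63.7 (SD, n = 27). The highest and lowest rat differed 1.47-fold, and 15% of the variance was of the size that read counting gives. Library 5 (696) and library 13 (679) followed library 12 at the top, and library 26 (504) was the second lowest.

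Maob, the other oxidase, had the same SD on the log2 scale as Maoa, 0.16. It was read 528 to 1342 times per library, and its normalised count had a lowest value of 774 in library 52, a median of 900 and a highest value of 1207 in library 35 (mean 903 ± 103, SD, n = 27). Library 35 lay above libraries 3 (1101) and 5 (1098), and the other 24 rats stayed below those. Read counting made up 8.78% of the variance, the smallest share among the 6 genes. Library 52 was therefore the lowest for both oxidases, while a different library was the highest for each.

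Of the 2 low-affinity transporters, Slc22a3 had the fewer reads. It had 25 to 100 raw reads per library, and its normalised count had a minimum of 32 in library 18, a median of 41.0 and a maximum of 76.1 in library 6 (mean 43.8 ± 10.7, SD, n = 27). Read counting made up 39.6% of that variance. The maximum rests on 44 reads in the library with the fewest reads of all, and libraries 43 (67.0, from 100 reads) and 54 (58.1) came next. The highest and lowest library differed 2.38-fold.

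Slc29a4 had 50 to 213 reads. Its normalised count went from 76.5 in library 3 over a median of 109 to 149 in library 47 (mean 112 ± 19.6, SD, n = 27), with 29.8% of the variance at the size of counting. Libraries 51 (144) and 43 (143) were next to the top and library 31 (85.3) next to the bottom. The 3 highest libraries for this transporter all came from the deeper ones numbered from 32.

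Ddc, the decarboxylase, had 51 to 196 reads and the widest range of the 6, 2.60-fold. Its normalised count had a minimum of 63.1 in library 28, a median of 97.7 and a maximum of 164 in library 3 (mean 100 ± 22.5, SD, n = 27). Libraries 35 (135) and 43 (131) followed, and library 31 (66.9) was the second lowest. Counting noise made up 20.3% of the variance.

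Hnmt, the histamine-methylating enzyme, had 51 to 156 reads and a normalised count with a minimum of 66.6 in library 26, a median of 93.8 and a maximum of 128 in library 19 (mean 99.1 ± 15.7, SD, n = 27). Libraries 9 (125) and 5 (123) lay just below the top. Read counting made up 41.3% of its variance, the largest share of the 6.

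**Figure D1:**
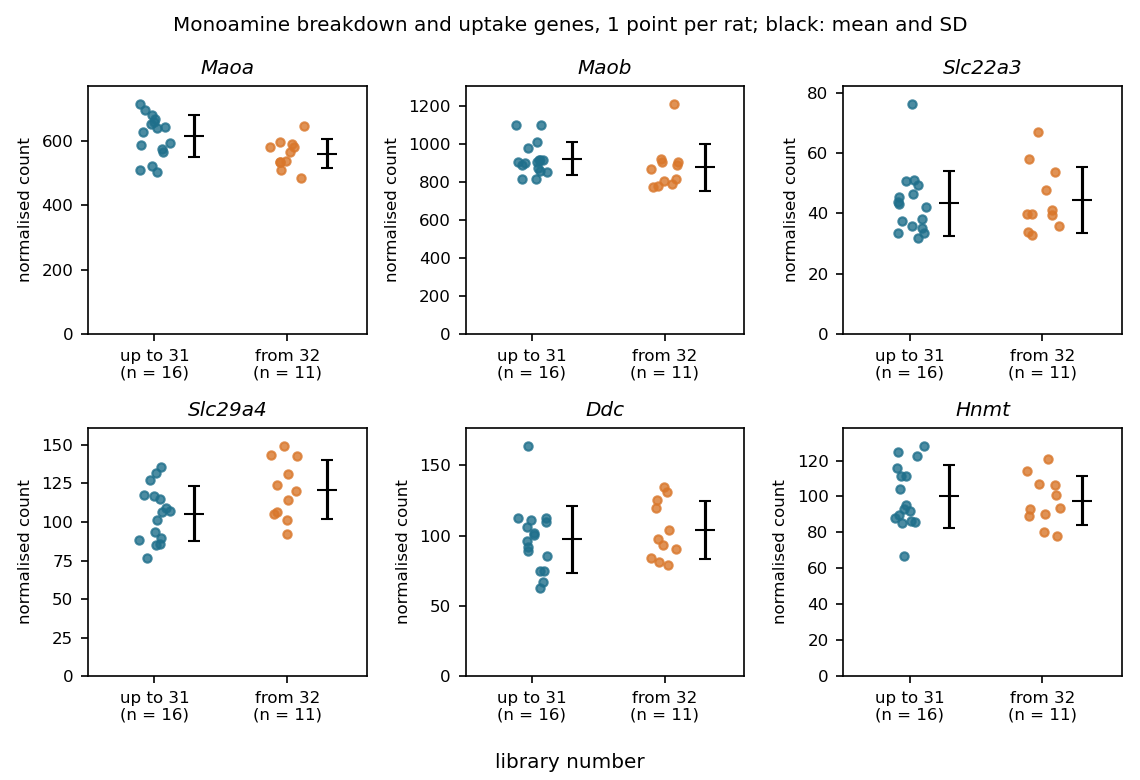
Normalised count (linear axis from 0) of each gene in each rat, with the libraries numbered up to 31 (blue, n = 16) beside those numbered from 32 (orange, n = 11); points are spread sideways at random, and black marks give mean and SD. The point clouds overlap in all 6 panels, Ddc has its highest point (164) in library 3 and Slc22a3 its highest (76.1) in library 6.

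Set beside genes of like level, the 6 lay neither at the top nor at the bottom of the spread. Among the 200 genes nearest in mean level, the share with a smaller SD of log2 values was 57.5% for Maoa, 60.0% for Maob, 39.5% for Slc22a3, 59.5% for Slc29a4, 72.0% for Ddc and 44.0% for Hnmt. Ddc was the farthest up, with an SD of 0.31 against a median of 0.24 for its neighbours. These shares are given as a description with no test.

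No gene of the 6 passed the test between the shallower and the deeper libraries, and 6 genes are too few to set this apart from the share of all genes. Between libraries numbered up to 31 and from 32, 0 of 6 passed an adjusted p of 0.05 in edgeR's quasi-likelihood test, against 18% of the 11716 genes tested, and 0 of 6 passed with DESeq2. At an unadjusted p under 0.05 there were 2, Maoa and Slc29a4, against 31.3% of all genes. The median log2 difference of the 6, which went both ways, was 0.01, and that of all genes was 0.00. With the sign left aside the medians were 0.08 for the 6 and 0.10 for all genes.

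Maoa ran from 504 through a median of 633 to 712 in the libraries up to 31 and from 485 through 566 to 645 in those from 32. The ranges overlapped, and the log2 difference (from 32 minus up to 31) was -0.13 ± 0.054 (SE, edgeR adjusted p = 0.0803). Slc29a4 pointed the other way, from 76.5 through 107 to 136 against 92.2 through 120 to 149. Its ranges overlapped as well, with a log2 difference of 0.20 ± 0.0892 (SE, edgeR adjusted p = 0.127). For the other 4 genes the difference lay between -0.07 (Maob) and 0.10 (Ddc), with adjusted p from 0.452 to 0.835.

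The next question was whether the 6 genes rose and fell together across rats. No pair of them did so beyond what permuting the rats gives: 0 of 15 pairs passed an adjusted p of 0.05, and 0 of 15 had an unadjusted p under 0.05, with either Spearman's rho or Pearson's r over 27 rats (two-sided permutation test, 100000 permutations, Benjamini-Hochberg over the 15 pairs). Adjusted p for rho ran from 0.62 to 0.922. Values of rho lay between -0.21 (Slc29a4 and Hnmt) and 0.31 (Maob and Hnmt).

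The 2 oxidases gave a rho of 0.26 (p = 0.198, adjusted p = 0.62, permutation test) and an r of 0.27 (p = 0.181, adjusted p = 0.472, permutation test), with a 95% interval of r from -0.13 to 0.59. Without the 2 libraries farthest from the median of Maoa, r was 0.20. In the libraries up to 31 the rho of Maoa and Maob was 0.04, and in those from 32 it was 0.49. Among all genes tested 73.3% had a lower rho with Maoa than Maob had. That interval holds both 0 and a moderate positive relation of the 2 paralogs.

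The 2 low-affinity transporters gave a rho of 0.12 (p = 0.567, permutation test) and an r of 0.16 with a 95% interval from -0.24 to 0.51. Maob and Ddc had the highest r of all pairs, 0.37 (p = 0.0547, permutation test), which became 0.03 without the 2 libraries farthest from the median of Maob. These are libraries 35 and 3, the 2 highest in both genes. Within the library blocks the pair had a rho of 0.08 up to 31 and 0.59 from 32. Maoa and Slc29a4 had a rho of 0.52 in the libraries up to 31 (p = 0.0393, permutation test, not adjusted) and of -0.39 in those from 32 (p = 0.235, permutation test), and the difference between the blocks was not tested.

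**Figure D2:**
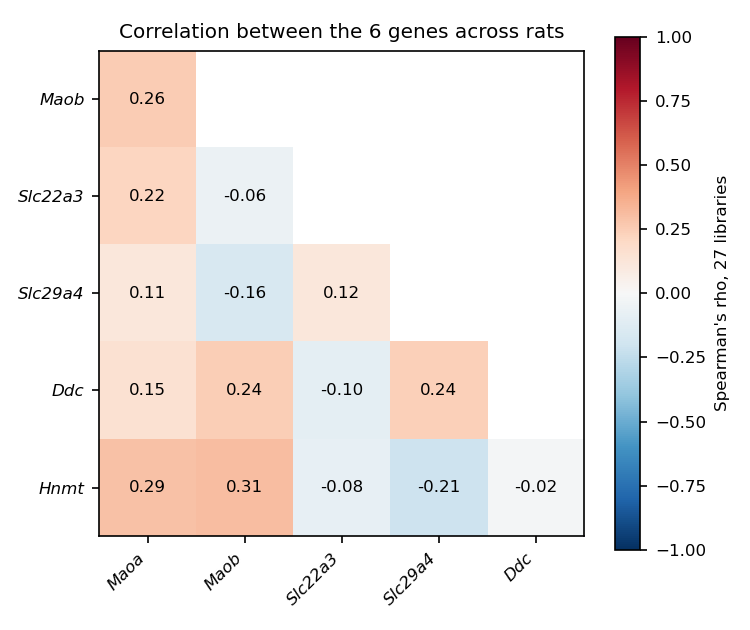
Spearman's rho of each pair of the 6 genes across 27 rats, written in each square and coloured on a scale from -1 (blue) to 1 (red). The squares are pale throughout, from -0.21 to 0.31, and no pair passed the permutation test.

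Since each sample is a piece of cortex with many cell types, the 6 genes were next set against scores of marker genes, each the mean z score of its list, none of which holds any of the 6. In bulk tissue, fewer cells of a type and less RNA per cell cannot be told apart. Slopes were fitted with edgeR across all genes, with the library block in the fit, and are log2 changes per SD of the score. The markers of a list were not taken out of the genes tested on its score, so the shares called can include them. Of 42 slopes (6 genes on 7 scores), 4 passed an adjusted p of 0.05: Maob on the astrocyte and the microglia score, Ddc on the endothelial score and Maoa on the neuron score. No slope of Slc22a3, Slc29a4 or Hnmt passed.

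Maob rose with the astrocyte score by 0.12 ± 0.0211 (SE, edgeR adjusted p = 0.00123), and 1 of 6 genes was called on this score against 1.56% of 12027. The 11 of 11 astrocyte markers counted, among them Gfap and Aqp4, had a summed level of 25479 to 37090 up to 31 and of 24277 to 34698 from 32. The libraries highest in the score, 5 (2.21 SD), 35 (1.81 SD) and 3 (1.71 SD), were also the 3 highest in Maob. Over the 27 rats rho was 0.64 (p = 0.00041, adjusted p = 0.00861, permutation test) and r was 0.77 (p = 1e-05, the smallest that these permutations can give, adjusted p = 0.00042). Without the 2 libraries farthest from the median score r was 0.65. Within the blocks rho was 0.79 up to 31 and 0.35 from 32.

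Maob also rose with the microglia score, by 0.11 ± 0.0206 (SE, edgeR adjusted p = 0.00338), where 1 of 6 genes was called against 0.773% of 12027. The 9 of 9 microglia markers, such as Csf1r and Cx3cr1, summed to 2194 to 3214 up to 31 and 2076 to 3375 from 32. Spearman's rho was 0.58 (p = 0.00189, adjusted p = 0.0265, permutation test) and r was 0.72, falling to 0.63 without the 2 farthest libraries, and the rho within blocks was 0.56 up to 31 and 0.67 from 32. This call rests on library 35, which had the highest Maob and the highest microglia score (2.22 SD). Without it the slope was 0.08 and the adjusted p was 0.0766. Which of the 2 glial scores Maob follows was not tested.

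Ddc rose with the endothelial score by 0.22 ± 0.0472 (SE, edgeR adjusted p = 0.0352), the steepest of the 42 slopes. Here 1 of 6 genes was called against 0.224% of 12027, which is 27 genes. The 9 markers of the score were not left out of that count. The 9 of 9 endothelial markers, such as Cldn5 of the tight junctions and Flt1, a receptor for vascular growth factor, summed to 2264 to 3996 up to 31 and 2666 to 4276 from 32. Spearman's rho was 0.64 (p = 0.00037, adjusted p = 0.00861, permutation test) and r was 0.69 (p = 6e-05, adjusted p = 0.00098, permutation test), with an r of 0.64 without the 2 farthest libraries. Within blocks rho was 0.59 up to 31 and 0.70 from 32. The edgeR call was close to the threshold: leaving out 1 of 20 libraries at a time kept it in 12 cases and lost it in 8, with adjusted p up to 0.0874 and slopes of 0.19 to 0.24. The 8 were libraries 6, 19, 26, 28, 35, 39, 42 and 52.

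Maoa rose with the neuron score by 0.09 ± 0.0224 (SE, edgeR adjusted p = 0.00264). On this score 1 of 6 genes was called against 34.7% of 12108 genes, so a call is common. The 10 of 10 neuronal markers, such as Snap25 and Rbfox3, summed to 47334 to 67628 up to 31 and to 52876 to 65160 from 32. Their spread was unlike, with an SD of log2 values from 0.11 for Gad1 to 0.77 for Map2, and 0.50 for Gad2. What the neuron score follows besides the content of neurons was not tested. Spearman's rho was 0.51 (p = 0.00727, adjusted p = 0.0763, permutation test) and r was 0.52 (p = 0.00454, adjusted p = 0.0396, permutation test), so only r passed the adjustment over the 42 relations. Within blocks rho was 0.62 up to 31 and 0.49 from 32. Library 3, the lowest in the score, left the call in place when omitted, with an adjusted p of 0.0168.

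Among slopes that did not pass, Maob on the oligodendrocyte score came closest (0.09 ± 0.0257, SE, edgeR adjusted p = 0.0594), and this slope passed with DESeq2 (adjusted p = 0.0409). Hnmt had its steepest slope on the same score (0.12 ± 0.041, SE, edgeR adjusted p = 0.108). As correlations over the 27 rats, both passed the adjustment over the 42 relations by r and not by rho. For Hnmt r was 0.52 (adjusted p = 0.0396, permutation test) and rho was 0.48 (adjusted p = 0.0986, permutation test), with a rho of 0.32 up to 31 and 0.63 from 32, and without the 2 farthest libraries r was 0.51. For Maob r was 0.51 (adjusted p = 0.0396, permutation test) and rho was 0.38 (adjusted p = 0.346, permutation test), with a rho of 0.72 up to 31 and -0.09 from 32, and without the 2 farthest libraries, of which library 3 is one, r was 0.38. By edgeR no gene of the 6 was called on the oligodendrocyte, mural or meningeal fibroblast score, where 2.97%, 2.22% and 2.76% of all genes were, and at an unadjusted p under 0.05 these held 2, 0 and 0 of the 6, against 16.1%, 11.9% and 7.91% of all genes. Slc22a3 had slopes from -0.04 (microglia) to 0.09 (neuron) with SE of 0.0656 to 0.0691. What part cell composition had in any of these differences was not tested.

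**Figure D3:**
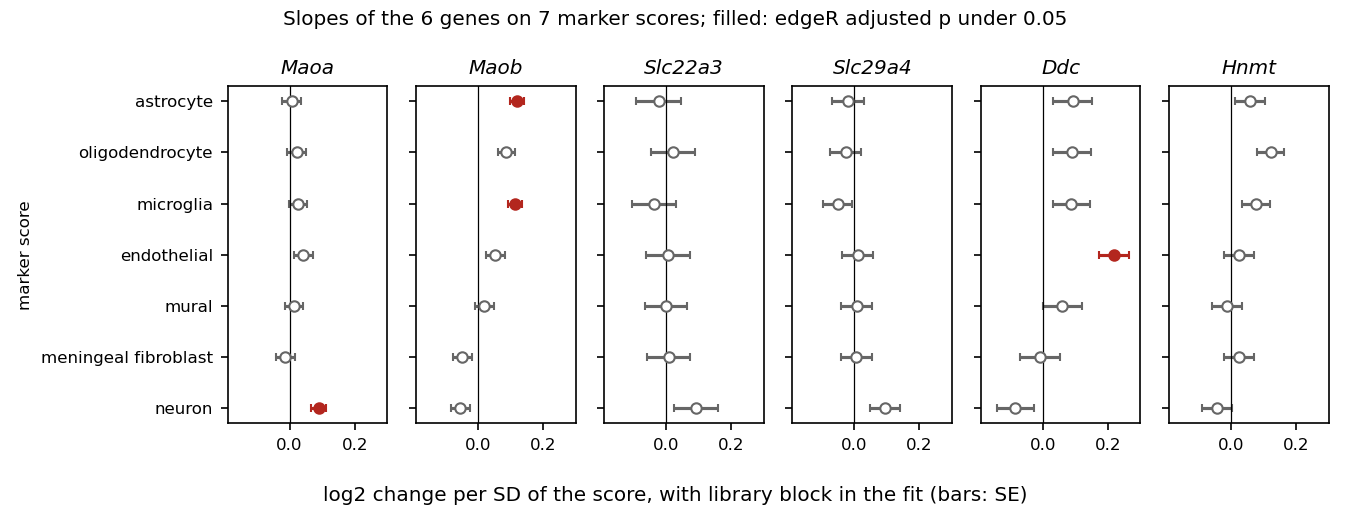
Slope of each gene (log2 change per SD, bars give SE) on 7 marker scores, with the vertical line at 0; filled red points have an edgeR adjusted p under 0.05. Of 42 slopes 4 are filled, with Ddc on the endothelial score (0.22) the farthest from 0.

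**Figure D4:**
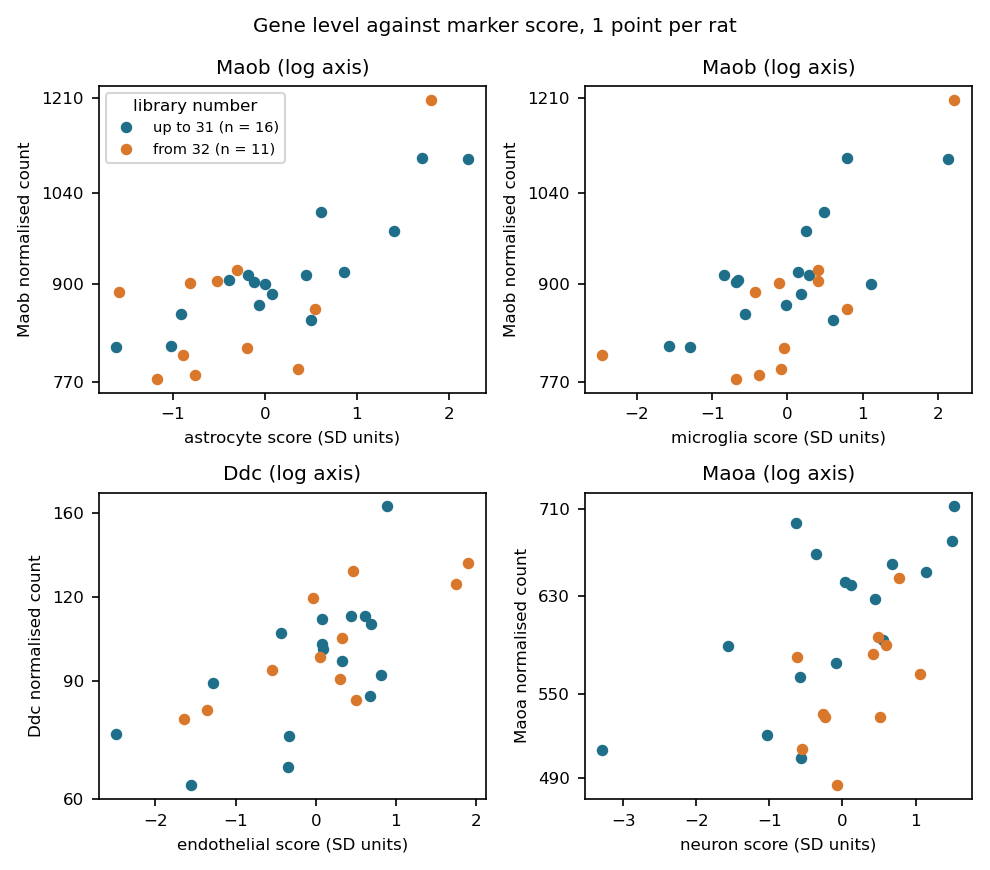
Normalised count on a log axis against marker score in SD units for the 4 called relations, 1 point per rat, blue for libraries numbered up to 31 and orange for those from 32. Library 35 is the top right point (Maob 1207) in the microglia panel, and library 3 is the far left point (-3.29 SD) in the neuron panel.

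The genes whose level across rats was most like that of each of the 6 were listed by Spearman's rho after removing the block means, over 9759 genes with a mean of at least 50. They are given as a description over the same 27 libraries, with no test. Ddc was closest to Csrp2 (rho 0.85), Prom1 (0.82) and Slco1a4 (0.76). Csrp2 encodes a LIM-domain protein, Prom1 a membrane glycoprotein, and Slco1a4 an organic anion transporter of brain capillaries that is also in the endothelial list. Itm2a (0.74) and Mccc2 (0.71) came next.

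Maoa was closest to Pkia (0.86), an inhibitor of protein kinase A, followed by Chm, Lrrtm2, Marchf5 and Cntn1 (0.85). Lrrtm2 and Cntn1 encode adhesion proteins of neurons. Maob was closest to Padi2 (0.78), a peptidylarginine deiminase, and then to Suclg2 of the citric acid cycle (0.74), Scd2, a fatty acid desaturase (0.73), Lap3 (0.73) and Tmem176b (0.72). Neither oxidase was among the 5 genes closest to the other.

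Hnmt was closest to Nadk2 (0.80), a mitochondrial NAD kinase, then to Cdkn1b, Arxes1, Smc3 and Add3 (0.73). Slc29a4 was closest to Pnma3 (0.73), Map3k4, Tacr1, which encodes the substance P receptor, Igf2r and Zmat3 (0.68). Slc22a3, the gene with few reads, reached the lowest values, with Mfn2 of mitochondrial fusion first (0.67) and Pi4kb, Rabgef1, Tfip11 and Tmem19 at 0.60 to 0.57.

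Other genes of the pathway were described from lists of 30 genes, all of which had a row. At least 10 reads on average were counted for 17, and fewer for 13, among them Moxd1 with none in any library. Of the 17, 16 varied between rats beyond counting, against 89.8% of all genes. Between the library blocks 1 of the 17 differed in edgeR's test, against 18% of the 11716 genes tested. It was Akr1a1, an aldehyde reductase (5351 ± 428, SD, n = 27), which was lower in the libraries from 32 (log2 difference -0.12, edgeR adjusted p = 0.0409), as were 9.18% of all genes.

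The synthesis enzymes other than Ddc were hardly read in this cortex. Of the 7 genes listed for synthesis, Moxd1 among them, only Th, tyrosine hydroxylase, had a mean of at least 10 reads. It had 13 to 46 per library (normalised 24.3 ± 5.84, SD, n = 27). Tph2, the tryptophan hydroxylase of neurons, had 1 to 11 reads, Dbh, which makes noradrenaline, 0 to 7, and Hdc, which makes histamine, 0 to 2. Ddc, the step after Th and Tph2, had 51 to 196 reads in the same libraries.

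Reads were also few for the high-affinity transporters of the terminal. Slc6a2, for noradrenaline, had a single read in each of 2 libraries, Slc6a3, for dopamine, had up to 5 reads and was seen in 7 libraries, and Slc6a4, for serotonin, had 0 to 23. Slc6a4 was at 11.3 ± 6.98 (SD, n = 16) in the libraries up to 31 and at 2.01 ± 1.54 (SD, n = 11) in those from 32, and it was left out of the test between the blocks by the filter on low counts. With the neuron score Slc6a4 fell by 0.47 per SD (edgeR adjusted p = 0.00733). On that score 34.7% of 12108 genes were called in either direction, so such a call is common. The slope of Slc6a4 was not refitted without the library lowest in that score. The vesicular transporter Slc18a2 was read 51 to 152 times (95.2 ± 12.6, SD, n = 27) and its relative Slc18a1 13 to 126 times (47.8 ± 22.7). Among the polyspecific transporters beside Slc22a3 and Slc29a4, Slc22a2 had 0 to 29 reads and Slc47a1 0 to 26, and neither reached a mean of 10. Of the 4 polyspecific transporters described, Slc22a3 and Slc29a4 were the 2 with reads in every library.

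In the breakdown list 8 of 10 genes had a mean of at least 10 reads, and 7 of the 8 varied beyond counting, with Rnls the exception. Aldh2, which oxidises the aldehydes that the oxidases produce, had a normalised count of 989 ± 97.8 (SD, n = 27), and the aldehyde dehydrogenase Aldh1a1 172 ± 56.6. Aoc3, a vascular amine oxidase, was read 3 to 81 times, with a median of 18. Aoc3, Aldh1a1, the sulfotransferase Sult1a1 and the transporter Slc47a1 rose with the meningeal fibroblast score, by 0.97, 0.37, 0.47 and 1.38 per SD (edgeR adjusted p of 1.09e-06 or less), and all 4 also rose with the mural score (0.78, 0.30, 0.31 and 1.06 per SD, edgeR adjusted p of 0.0177 or less). The meningeal markers, 8 of 8 counted, summed to 363 to 7122 up to 31 and to 457 to 4312 from 32, and the 9 of 9 mural markers to 1137 to 4696 and 972 to 2845. Their part in the ranges of these 4 genes was not tested. Aoc1, which oxidises histamine outside the brain, had at most 1 read, and Hnmt, the other histamine-degrading enzyme, 51 to 156. The 6 enzymes of the tetrahydrobiopterin cofactor and its users all had a mean of at least 10, from Gch1 (11.3 ± 4.99) to Qdpr (1652 ± 234), and all 6 varied beyond counting. Qdpr rose with the oligodendrocyte score by 0.17 per SD (edgeR adjusted p = 1.19e-05). Qdpr and Gch1 fell with the neuron score (-0.09 and -0.35 per SD, edgeR adjusted p = 0.0319 and 0.0117), as did Aldh2 and Akr1a1 of the breakdown list (-0.08 and -0.05 per SD, edgeR adjusted p = 0.00846 and 0.0338). On the neuron score 34.7% of 12108 genes were called in either direction, so such calls are common. The slopes of these genes were not refitted without library 3, the lowest in that score.

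**Figure D5:**
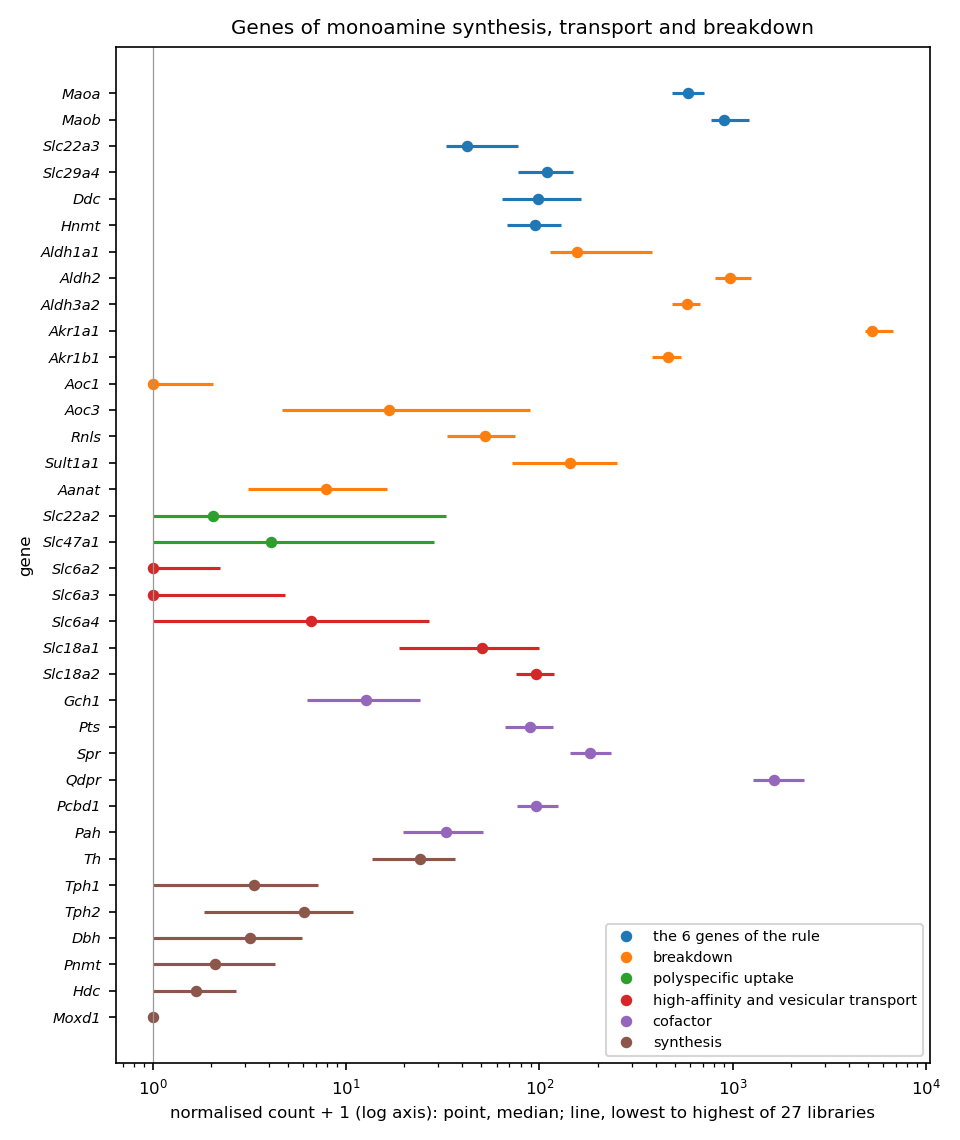
Normalised count plus 1 on a log axis for the 6 genes (top) and 30 further genes of monoamine synthesis, transport and breakdown; points are medians and lines run from the lowest to the highest of 27 libraries. Lines that start at 1 mark genes with no read in at least 1 library, such as Slc6a4 and Hdc, and positions of different genes are not comparable because transcript length is not taken into account.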

How the data were processed

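RNA from the mPFC of 27 rats was sequenced by the authors as single reads, who deposited raw counts, the number of reads counted per gene and library, without normalization. The submitters' processing notes name Trimmomatic, STAR and HTSeq without versions; genome build and strandedness are not given in the sources used here, so reads of overlapping and antisense genes cannot be told apart. Gene IDs were named from RefSeq (GRCr8), which matched 28157 of 36865 rows; 436 rows of genes with several loci were not used as members. Groups came from the labels, which give 1 group; library blocks came from the numbers in the titles. Nothing says that libraries were repeated, so the spread holds rat and library preparation together. The members and lists were chosen with earlier results of these data known.

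Counts were divided by median-of-ratios size factors from DESeq2 (version 1.42.0), and log values are log2(normalised count + 1). Spread was tested with a chi-square dispersion test on genes averaging at least 10 reads. Library blocks and marker scores were tested with edgeR (version 4.0.16) on counts after filterByExpr and TMM, with Benjamini-Hochberg adjustment over all genes tested. DESeq2's Wald test, other scalings, a pseudocount of 0.1, no low-count filter, no block term and omission of libraries 12 and 20 were alternatives. Correlations used 100000 permutations, and intervals of r used Fisher's transformation. Without molecular identifiers, counting shares, the floor of 3 counts and intervals of counts cover counting error only. In counts simulated for 11716 genes, 200 of them changed by 0.5 (log2) between the blocks, edgeR recovered 163 with 7 false calls. In counts simulated for 11730 genes, 200 of them with added variation, the dispersion test recovered 186 with 11 false calls. Some genes of the pathway lists are not reported here. The genes named are the 6 members, genes of the pathway and marker lists, and the 5 genes most like each member. Permutations and lists were computed in Python 3.11.15 (scipy 1.17.1, pandas 2.3.3) and models in R 4.3.3.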

Additional observations from a re-analysis of the deposited data

How the results depend on the processing

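No result past the threshold changed direction under any alternative tried. Some values that passed no test did change sign. The correlation of Ddc and Hnmt, with a rho of -0.02, was 0.011 with total-count scaling, 0.0336 with block means removed and 0.0538 as Pearson's r. Slc29a4 on the mural score went from 0.01 to -0.00829 without the library block, and on the meningeal fibroblast score from 0.01 to -0.00025 without libraries 12 and 20. Maoa on the astrocyte score, at 0.01, turned negative without library 5, 18 or 52. The slope of Ddc on the neuron score went from -0.08 to 0.05 without library 3, so its direction rests on that library. The cause of these was not tested. Of 43 alternatives for counts of genes or pairs, 40 stayed within 1.5 times. The exceptions were the number of genes following the oligodendrocyte score, 172 without the library block in the fit against 357 with it, and the numbers following the microglia score (174 against 93) and the endothelial score (46 against 27) with DESeq2 in place of edgeR. The cause was not tested. Of 392 alternatives for tests on single genes and pairs, 376 kept their direction and their side of the threshold. The 42 alternatives for the level and SD of the 6 genes, which have no test, moved a mean by less than its SD between rats and an SD by less than 1.5 times. Maob on the oligodendrocyte score passed with DESeq2 (0.09, adjusted p = 0.0409). Ddc on the endothelial score did not pass in edgeR without libraries 12 and 20 (0.22, adjusted p = 0.0589), where fewer samples were fitted, and passed with DESeq2 (adjusted p = 0.00379). Omitting 1 of the 20 libraries farthest from the median score, an alternative chosen after seeing the data, kept Maob on the astrocyte score in 20 of 20 cases (slope 0.09 to 0.13) and Maoa on the neuron score in 20 of 20 (0.08 to 0.10). It kept Maob on the microglia score in 19 of 20, with library 35 the exception, and Ddc on the endothelial score in 12 of 20. The number of genes called against which these are read moved by over 1.5 times without library 5 (astrocyte 95, microglia 48), 17 (astrocyte 121), 18 (astrocyte 125), 35 (microglia 35), 26 (endothelial 16) and 39 (endothelial 17). No pair of the 6 genes was called in any alternative, the smallest adjusted p being 0.432 with block means removed. The 6 genes varied beyond counting in every alternative. No paired analysis was possible because the 27 libraries form 1 group and each library number occurs once. Depth limits Slc22a3 and Hnmt most, with 39.6% and 41.3% of their variance at the size of read counting.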
